A study of Drosophila melanogaster with 2 samples.

Results

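Of the 2758 peaks in the thresholded dm6 list of CG12744-GFP binding in Drosophila melanogaster embryos, 191 had their summit downstream of a lone start site. A lone start site is an annotated transcript start with no opposite-strand start of another gene within 500 bp upstream of it. A peak was counted here when its nearest annotated start was such a site and the summit, the position the authors gave as the peak's highest point, lay 0 to 500 bp into the transcribed strand. The rule used position alone and no signal. The rest of the list comprised 844 peaks upstream of lone start sites, 561 at head-to-head start sites, where start sites of different genes on opposite strands lie close together, and 1162 over 500 bp from any start.

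The study has 1 group of 2 samples. Both came from whole embryos of both sexes, collected 0 to 24 h after laying, of 1 transgenic line that stably carries CG12744 with GFP at its C terminus. The labels class the assay as a transcription factor ChIP-seq. Chromatin was sonicated, fragments of 200 to 800 bp were used, and DNA bound by the tagged protein was pulled down through its GFP and sequenced (ChIP-seq). They carry the numbers 2 and 4 as biological replicates. No untagged or untreated group was analysed here, so every value describes the tagged line in a mixture of all embryonic cell types and stages. With 1 group no test between conditions was possible.

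Sequence just past a transcription start holds part of the core promoter, the early transcribed region in which RNA polymerase II often pauses, and the 5' untranslated region (5' UTR) of the mRNA. In fly promoters, short motifs recur close to the start. Among them are the DNA replication-related element (DRE, TATCGATA), the target of the factor DREF, and motif 1 (GGTCACAC), bound by the factor M1BP. GAGAG repeats are bound by the GAGA factor, and initiator and TATA box sequences help position the polymerase.

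A DRE lay within 100 bp of the summit of 10 of the 191 peaks. Its centre fell within 25 bp of the summit in 5 of them, and 4 of these are shown. Capitals mark the motif, and each reads 5' to 3' on the gene's strand (Release 6 genome, dm6). At these 4 genes the 8 bases were centred 10 to 63 bp past the start, and 2 of the genes encode ribosomal proteins.
RpS29, chr3R:9778046-9778075, plus strand: atcgtggaaaaTATCGATActgccaccccc
RpL36A, chr2L:8042884-8042913, minus strand: aaacgaaaaccTATCGATAgcgcatggctt
Nipsnap, chrX:16073505-16073534, minus strand: tggacgcgataTATCGATAcaatcggtcag
Pat1, chrX:6590824-6590853, plus strand: gcagcagtgtcTATCGATAggaccagctgt

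Motif 1 lay under 8 peaks, and its centre was 1 bp from the summit at RpL30 and 21 bp at trx. These sequences are shown because both genes recur among the values given later, with capitals marking motif 1.
RpL30, chr2L:19009261-19009290, minus strand: atccccccgtcGGTCACACcaacacaaacg
trx, chr3R:14286868-14286897, minus strand: gttatcggcgcGGTCACACtgtccggtcgt

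The pentamer CACTG was the most frequent of the 12 motifs searched, under 99 peaks, and its 8-base extension CAACACTG lay under 6. The 4 peaks with CAACACTG, or its reverse complement CAGTGTTG, centred within 25 bp of the summit are shown, with those 8 bases in capitals.
Stat92E, chr3R:20550734-20550763, minus strand: gtgtgtttacaCAGTGTTGtgcgttggtgt
CG7685, chr3R:18404932-18404961, plus strand: ccccagcccagCAGTGTTGactaacgcagg
eIF4A, chr2L:5982431-5982460, plus strand: ctggtgttaggCAACACTGgcgccactgtt
CG33695, chr2L:11278029-11278058, plus strand: gtgtacggcgtCAGTGTTGaatagctgcgg

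Summits further from the start often fell in introns and non-coding exons, and 4 of the highest are given as 101 bases centred on the summit, with CACTG or CAGTG in capitals. None of the 4 windows overlapped an annotated UTR. Their G+C content was 29.7% at lncRNA:CR44619, 27.7% at CG31612, 35.6% at Cftr and 28.7% at rudhira.
lncRNA:CR44619, chrX:12752317-12752417, plus strand: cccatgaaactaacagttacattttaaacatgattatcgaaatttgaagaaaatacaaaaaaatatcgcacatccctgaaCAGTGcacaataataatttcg
CG31612, chr2L:21794911-21795011, minus strand: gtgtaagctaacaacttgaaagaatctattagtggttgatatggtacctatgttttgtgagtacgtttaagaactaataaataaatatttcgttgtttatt
Cftr, chr3R:24543155-24543255, minus strand: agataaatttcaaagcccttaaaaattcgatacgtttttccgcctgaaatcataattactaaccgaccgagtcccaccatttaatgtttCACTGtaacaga
rudhira, chrX:11818568-11818668, plus strand: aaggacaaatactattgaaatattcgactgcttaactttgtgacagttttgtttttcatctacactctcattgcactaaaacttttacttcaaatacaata

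The downstream summits crowded against the start site, thinned out and were more frequent again towards the far end of the window. They did not stop at that edge, as a window of 1000 bp held 292 peaks. The median distance was 85 bp (quartiles 26.5 and 256 bp), against 156 bp for the 844 summits upstream of lone starts. Within 25 bp of the start there were 47 downstream and 48 upstream summits. From 51 to 100 bp there were 27 downstream and 158 upstream. Downstream counts fell to 5 from 251 to 300 bp and 3 from 301 to 350 bp, and then came to 13, 18 and 10 in the next 3 steps of 50 bp. Upstream counts in those last 3 steps were 51, 25 and 22, after 62 and 50 in the steps from 251 to 350 bp. The distance is taken to the nearest start, so the annotation shapes these counts: 45 of the 191 peaks (23.6%) had another start of the same gene within 500 bp beyond the summit.

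**Figure D1:**
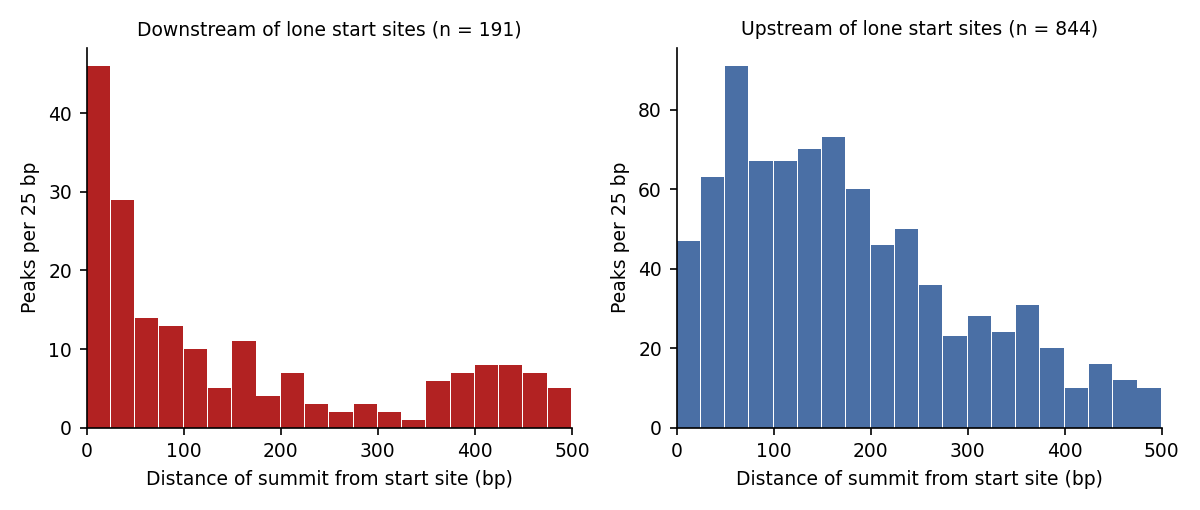
Number of summits per 25 bp of distance from the lone start site, downstream (left, n = 191) and upstream (right, n = 844), on separate vertical scales. Downstream summits are densest in the leftmost bins, sparse around 300 bp and more frequent again beyond 350 bp.

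The annotation under the summit changed with distance. Over all 191 peaks, 115 summits (60.2%, exact 95% interval 52.9 to 67.2) lay in a 5' UTR, 42 in introns, 27 in exons of non-coding genes, 4 in coding exons, 3 between genes and 0 in 3' UTRs. Of all 2758 peaks in the list, 10.9% lay in a 5' UTR, 43% in an intron and 3.05% in a non-coding exon. Of the 102 downstream peaks within 100 bp, 93 (91.2%) were in a 5' UTR and 2 in an intron. Of the 89 beyond 100 bp, 22 (24.7%) were in a 5' UTR, 40 (44.9%) in an intron and 21 (23.6%) in a non-coding exon. Of the 41 beyond 350 bp, 24 (58.5%, 42.1 to 73.7) were intronic. The feature was that of any transcript on either strand, so it need not belong to the gene of the nearest start. At lncRNA:CR45997, for example, the intronic summit lay beyond the annotated end of that gene. The rule places summits just past a start, so the layout of annotated genes shapes these shares. The same shares for starts chosen without regard to peaks were not computed. Intervals given for shares cover counting error only.

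The kind of gene changed with distance too. The nearest start belonged to a protein-coding gene for 157 of 191 downstream peaks (82.2%, 76 to 87.3), against 797 of 844 upstream peaks (94.4%, 92.7 to 95.9). Of the 1162 peaks over 500 bp from any start it was 958 (82.4%, 80.1 to 84.6), close to the downstream share. Within 100 bp of the start it was 96 of 102 downstream peaks (94.1%, 87.6 to 97.8) and 258 of 270 upstream peaks (95.6%, 92.4 to 97.7). Beyond 100 bp it was 61 of 89 downstream peaks (68.5%, 57.8 to 78) and 539 of 574 upstream peaks (93.9%, 91.6 to 95.7). Long non-coding RNA (lncRNA) genes supplied 23 of those 89 downstream peaks (25.8%), against 3 of the 102 nearer ones (2.94%). Over all distances lncRNA starts made up 26 of 191 downstream peaks (13.6%, 9.09 to 19.3), 33 of 844 upstream peaks (3.91%, 2.71 to 5.45) and 228 of all 2758 (8.27%).

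Peak signal, the authors' own value for each peak, was modest in this group. Its median was 92.5 (quartiles 76.6 and 131, range 68.5 to 763), against 102 upstream of lone starts, 102 at head-to-head starts and 99.1 over the whole list. Of the 191 peaks, 79 (41.4%, 34.3 to 48.7) were among the 1379 highest of the list, against 442 of 844 upstream (52.4%, 48.9 to 55.8). The nearer peaks held the lower values. The median was 85.3 for the 102 peaks within 100 bp and 102 for the 89 beyond it. Upstream peaks showed the same order, with 88.2 for the 270 within 100 bp and 111 for the 574 beyond it. Of the near peaks, 31 of 102 downstream (30.4%) and 100 of 270 upstream (37%) were among the 1379 highest. Median G+C content within 100 bp of the summit was 43.8% for near and 39.3% for far downstream peaks, and 41.3% and 34.8% for near and far upstream peaks.

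**Figure D2:**
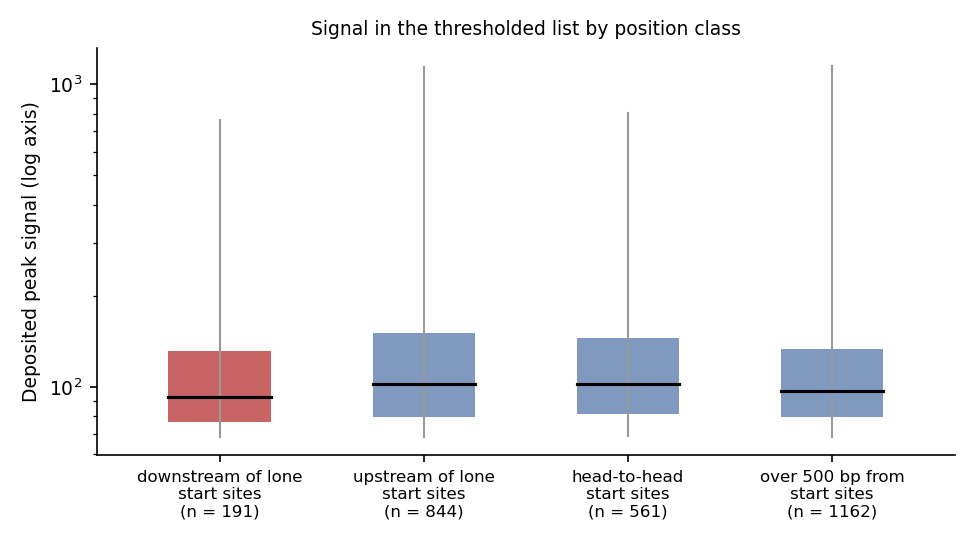
Deposited signal in the thresholded list by position class, on a log axis; boxes span the quartiles, black lines are medians and grey lines run from lowest to highest. The median of the 191 downstream peaks is 92.5, below the 102 of the upstream and head-to-head peaks, and the boxes overlap widely.

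The highest peak of the group lay in the 5' UTR of PNPase, the gene of polynucleotide phosphorylase, a mitochondrial RNA-degrading enzyme (chr3R:31404498-31404830). It ranked 10 of 2758, with a thresholded signal of 763. Its signal was 393 in replicate 2 (rank 12) and 373 in replicate 4 (rank 6). The summit was 81 bp past the start by the thresholded list, 85 bp by replicate 2 and 79 bp by replicate 4, and a further start of PNPase lay 91 bp beyond it. So this summit was downstream of 1 start and upstream of another in every list.

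The next highest peak lay in the 5' UTR of GstE13, a glutathione S-transferase gene, with a thresholded signal of 555. Its signal was 296 in replicate 2 (rank 26) and 258 in replicate 4 (rank 29), and its summit was 59 bp past the start. 2 lncRNA genes followed. The peak in lncRNA:CR44619 had its summit 500 bp past the start, a signal of 476 and ranks of 33 in replicate 2 and 44 in replicate 4. The peak in lncRNA:CR31840 had its summit 29 bp past the start, a signal of 472 and ranks of 47 in replicate 2 and 34 in replicate 4. All 4 stood in the top 50 of both replicates, and the next signal was the 334 of CG31612.

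Several of the next peaks lay over 200 bp from the start, in introns or a 5' UTR. The intronic summit in CG31612, 486 bp from the start, ranked 99 in replicate 2 and 100 in replicate 4. The summit in ph-p, which encodes the Polycomb repressive complex 1 subunit Polyhomeotic proximal, was in the 5' UTR 449 bp from the start, with a signal of 249 and ranks of 152 in replicate 2 and 196 in replicate 4. Replicate 4 placed that summit at 392 bp and replicate 2 at 454 bp. Intronic summits were also found in Cftr, the fly counterpart of the CFTR chloride channel gene, at 220 bp (signal 229), and in rudhira, a cytoskeletal regulator active in blood cell migration, at 281 bp (signal 218). Cftr ranked 204 in replicate 2 and 241 in replicate 4, and rudhira 237 in replicate 2 and 266 in replicate 4. Ptp4E, a receptor tyrosine phosphatase gene, held an intronic summit at 391 bp (signal 179), and CG31523 one at 490 bp (signal 173).

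Peaks close to the start among the 25 highest were those of CG9399 (20 bp, signal 232), the UFM1-specific protease gene Ufsp1 (24 bp, 221), the ecdysone-induced nuclear receptor gene Eip75B (35 bp, 209), Adk3 (14 bp, 204) and RpL30 (31 bp, 186). CG8306 (0 bp, 186), CG4497 (51 bp, 179), CG14434 (94 bp, 176) and Nacalpha (7 bp, 176), which encodes a subunit of the nascent polypeptide-associated complex, were lower. Trl, the gene of the GAGA factor itself (chr3L:14757040-14757449), had its summit 91 bp past the start with a signal of 183, and ranked 473 in replicate 2 and 349 in replicate 4. CG18622 (177 bp, signal 209), CG12316 (115 bp, 183) and the lncRNA genes CR44380 (305 bp, 209), CR44676 (410 bp, 199) and CR46102 (143 bp, 175) completed the 25. The CR44676 summit lay beyond the annotated end of that short RNA, in intergenic sequence. All 25 were matched within 100 bp among the top 2758 of both replicates.

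That match was less frequent over the whole group. Of the 191 peaks, 103 (53.9%, 46.6 to 61.1) were matched within 100 bp among the top 2758 of both replicates, against 552 of 844 upstream of lone starts (65.4%, 62.1 to 68.6) and 64.3% of all thresholded peaks. By replicate it was 152 of 191 (79.6%) in replicate 2 and 136 (71.2%) in replicate 4, and 6 peaks matched in neither. Distance divided this share as it did signal. Within 100 bp, 46 of 102 downstream peaks (45.1%, 35.2 to 55.3) matched in both, against 142 of 270 upstream peaks (52.6%, 46.5 to 58.7). Beyond 100 bp, 57 of 89 downstream peaks (64%, 53.2 to 73.9) matched in both, against 410 of 574 upstream peaks (71.4%, 67.5 to 75.1). The thresholded list was made from these replicates, so the match describes the lists and is no independent test.

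**Figure D3:**
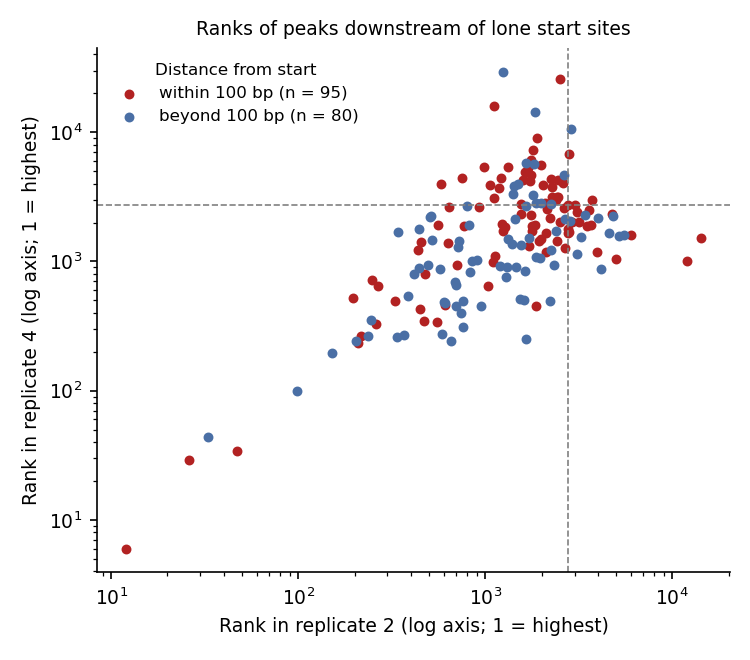
Rank of each downstream peak in replicate 2 (horizontal) and replicate 4 (vertical), both on log axes, for the 175 peaks found in both whole lists; dashed lines mark rank 2758. The few highest peaks lie near the diagonal, and most of the peaks beyond a dashed line are past it in 1 replicate only.

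Of the 175 peaks found in both replicates, the 5 with the largest ratio of ranks had low thresholded signals, from 69 to 93.6. Peaks with no summit within 100 bp in 1 replicate have no ratio, and reached a signal of 135, at Nrx-1. Each rank is that of the replicate's nearest summit within 100 bp, which need not be the same peak. The summit at CG32195 ranked 1248 in replicate 2 and 29472 in replicate 4. The replicate 4 summit lay 256 bp past the start, against 158 bp by the thresholded list. The summit at Jra, the fly Jun gene, ranked 1112 in replicate 2 and 15865 in replicate 4, and that of inaE, a diacylglycerol lipase gene, ranked 2512 in replicate 2 and 25812 in replicate 4. The order was the opposite for sqh, which encodes the regulatory light chain of non-muscle myosin, with rank 12009 in replicate 2 and 1005 in replicate 4. Hakai, an E3 ubiquitin ligase gene, ranked 14234 in replicate 2 and 1516 in replicate 4. In replicate 2 the summits lay 73 bp upstream of the start at sqh and 54 bp upstream at Hakai. By the thresholded list they were 24 and 30 bp downstream.

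Whether a summit counts as downstream depended on the replicate for peaks near the start. Among the 184 peaks found in replicate 2, 172 (93.5%) were downstream by that replicate's own summit, as were 159 of the 182 found in replicate 4 (87.4%). In all, 144 of 191 (75.4%, 68.7 to 81.3) were downstream in both, and 33 were upstream in at least 1 replicate. All 33 were among the 102 within 100 bp, where a summit matched within 100 bp can cross the start, whereas beyond 100 bp none could. The median shift between the thresholded and the replicate summit was 9.5 bp in replicate 2 and 14 bp in replicate 4, against a median distance of 30 bp for these 102 peaks.

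**Figure D4:**
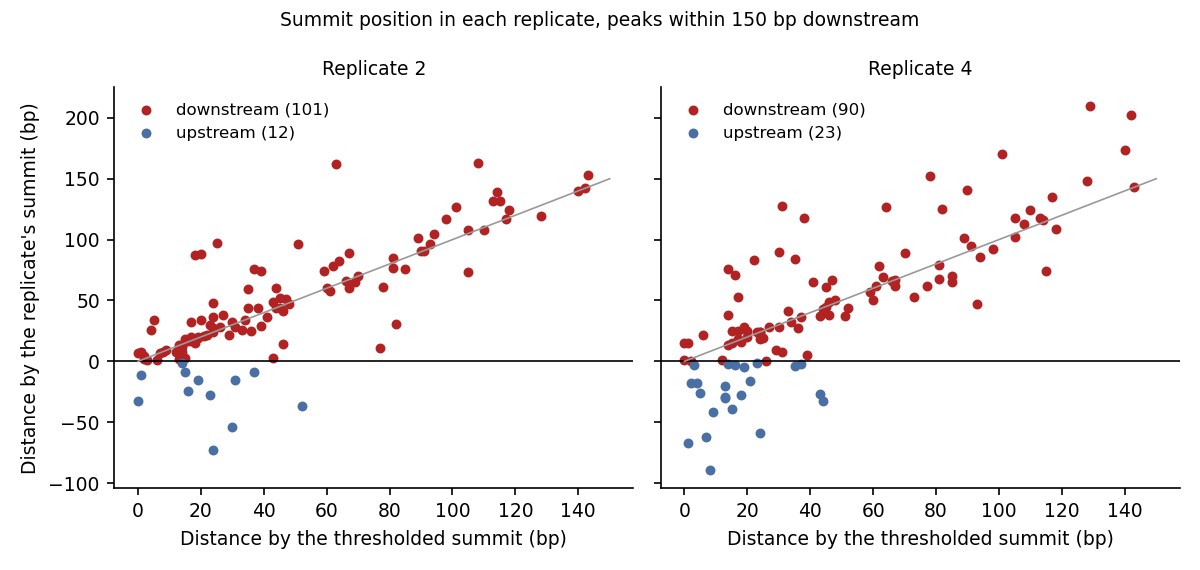
Distance of each replicate's own summit from the start (vertical, bp) against that of the thresholded summit (horizontal, bp), for peaks up to 150 bp downstream; the grey line marks equal distances. Points below 0 are upstream by that replicate, 12 in replicate 2 and 23 in replicate 4.

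At Nacalpha the summit was 7 bp downstream by the thresholded list and by replicate 2, and 62 bp upstream by replicate 4. At eEF1alpha1, a translation elongation factor gene, it was 9 bp downstream in the thresholded list and replicate 2, and 42 bp upstream in replicate 4. The edges of the rule cut through a continuous run of peaks. Just inside the start were CG8306 and plum at 0 bp (signals 186 and 77.7) and Gmap at 1 bp (108). Just outside it were Thor, the 4E-BP translational repressor gene, 1 bp upstream (106), PolE1 at 2 bp (68.5) and rdgB at 3 bp (80). At the far edge, CG31523 at 490 bp (173), lncRNA:CR44467 at 496 bp (101) and lncRNA:CR44619 at 500 bp (476) were inside. Beyond it, omd at 501 bp (73.8), CG15247 at 509 bp (90.4) and lncRNA:CR43411 at 510 bp (95.6) were outside.

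Either strand could hold a match, up to 100 bp from the summit, and a match describes the sequence, not a bound site. CACTG was found under 99 of 191 downstream peaks (51.8%, 44.5 to 59.1), 47.7% of upstream peaks and 48.3% of the whole list. Windows of the same length at all 18323 lone start sites, centred 85 bp downstream, held it in 35.6%. Windows at upstream summits and at most near downstream summits reach further upstream of the start than these fixed windows do. The lone start shares are therefore not a like background for any motif given here or below. CACTG was under 51 of the 102 near peaks (50%, 39.9 to 60.1) and 48 of the 89 far ones (53.9%, 43 to 64.6). Upstream it was under 55.6% (49.4 to 61.6) of near and 44.1% (40 to 48.2) of far peaks. TATAAA was found in 23% (17.3 to 29.7) of downstream peaks and 31.3% of upstream peaks, with 17.2% of lone start windows. Motif 6 (GTATNTT) stood at 16.8% downstream, 22.7% upstream and 13.8% of lone start windows. DRE core (ATCGAT, which every DRE also contains) was in 12% downstream, 14.2% upstream and 7.71% of lone start windows. Among near peaks it was in 13.7% (7.71 to 22) downstream and 24.1% (19.1 to 29.6) upstream. Among far peaks it was in 10.1% downstream and 9.58% upstream. The initiator TCAGTT was in 12.6% and its form TCAGTC in 6.28% of downstream peaks, against 21.2% and 11% of lone start windows, where the window is fixed to the start and not to a summit.

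Other motifs had different shares near and far, with intervals that did not overlap for motif 7 and overlapped for the others given here. DRE was under 8 of 102 near peaks (7.84%, 3.45 to 14.9) and 2 of 89 far peaks (2.25%, 0.273 to 7.88), against 9.63% of near and 2.79% of far upstream peaks, and 1.23% of lone start windows. The DRE share of the whole group, 5.24%, was 2.62% when the highest peaks of replicate 4 alone were used. Motif 1 was under 8 near peaks (7.84%, 3.45 to 14.9) and 0 of the 89 far ones (0%, exact upper limit 4.06%), against 11.1% of near and 1.05% of far upstream peaks, and 2.31% of lone start windows. Motif 7 (CANCNCTA) was under 20 of 102 near peaks (19.6%, 12.4 to 28.6) and 2 of 89 far peaks (2.25%, 0.273 to 7.88), against 25.2% of near and 8.01% of far upstream peaks, and 6.56% of lone start windows. The E-box CAGCTG was under 18 near (17.6%, 10.8 to 26.4) and 6 far peaks (6.74%, 2.51 to 14.1), against 15.2% of near and 6.79% of far upstream peaks, and 10.2% of lone start windows. GAGAG was under 29 near (28.4%, 19.9 to 38.2) and 12 far peaks (13.5%, 7.17 to 22.4), against 24.8% of near and 29.6% of far upstream peaks, and 22.3% of lone start windows. CAACACTG was under 5 near (4.9%, 1.61 to 11.1) and 1 far peak (1.12%, 0.0284 to 6.1), 3.14% of all 191. Upstream it was under 10.4% (7 to 14.6) of near and 1.92% of far peaks, 4.62% of all 844. Of lone start windows, 0.873% held it. For DRE, motif 1, motif 7, the E-box and CAACACTG the near and far shares thus had the same order on both sides of the start. With windows reaching 100 bp from the summit, every near window holds the start site and no far window does. Lone start windows at matching distances were not examined, so these orders are not set apart from those of start sites in general. For GAGAG the order differed between the sides, and that difference was not tested.

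**Figure D5:**
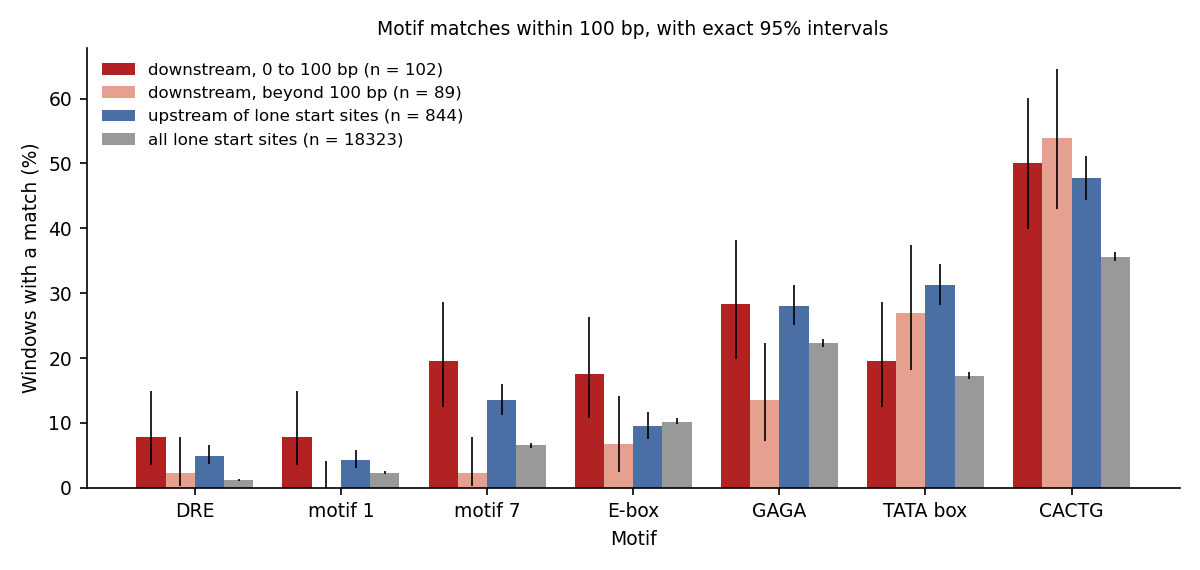
Percent of windows within 100 bp of the summit that hold each motif on either strand, for near (n = 102) and far (n = 89) downstream peaks, upstream peaks (n = 844) and windows at all lone start sites (n = 18323), with exact 95% intervals. Motif 7 stands at 19.6% near and 2.25% far, whereas CACTG is close to 50% in both.

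The 191 peaks named 189 genes by their nearest start, of which 155 were protein-coding, 1.11% of the 13945 such genes annotated. 4 genes held 2 peaks each (milt, Trpm, l(3)neo38 and lncRNA:CR44380). Of the 189, 15 (7.94%) also had a peak upstream of a lone start, as did 816 of all 18164 genes. Against the 1.11% background, 9 of 93 cytosolic ribosomal protein genes (9.68%) had a downstream peak. Those genes also had more upstream peaks, with 18 of 93 (19.4%) against 5.51% of all protein-coding genes. The list was chosen with earlier results known, so these shares are a description.

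The ribosomal protein genes RpL30 and RpS29 had the highest downstream peaks of their list, then RpL8. The RpL30 signal was 115 in replicate 2 (rank 266) and 68.7 in replicate 4 (rank 642). RpS29 had 93 in replicate 2 (rank 438) and 49.5 in replicate 4 (rank 1230), and RpL8 had 91.6 in replicate 2 (rank 455) and 46 in replicate 4 (rank 1414). RpS12, RpL26, RpL36A, RpS23, RpL35A and RpL7A made up the 9, whose thresholded signals ran from 72 to 186. RpL30, RpS29, RpL8, RpS12 and RpL35A ranked higher in replicate 2, and RpL26, RpS23 and RpL7A in replicate 4. RpL36A had no peak within 100 bp in replicate 4. Of the 9 summits, 8 were within 100 bp of the start, 5 had a DRE or motif 1 in the window, and 5 were matched in both replicates. In 4 of them at least 1 replicate placed the summit upstream of the start. Over all 191 peaks, 53.4% were within 100 bp, 5.24% had a DRE and 4.19% motif 1. Of the same 191, 53.9% were matched in both replicates and 17.3% were upstream in at least 1. Among the 102 peaks within 100 bp, 7.84% had a DRE and 7.84% motif 1, each counted separately. Of those 102, 45.1% were matched in both replicates and 32.4% were upstream in at least 1.

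The other lists held few downstream peaks, and each share stands against the 1.11% of all protein-coding genes downstream and 5.51% upstream. Chromatin regulator genes supplied 3 of 49 downstream (6.12%) and 5 upstream (10.2%). The downstream genes were ph-p, the BTB protein gene lolal and trx, which encodes a histone H3 lysine 4 methyltransferase. CACTG was in the window of all 3, as in 51.8% of the 191 downstream peaks, and at trx it overlapped motif 1. The lolal peak had a signal of 76 and ranks of 2921 in replicate 2 and 2005 in replicate 4, and trx had 71.3 and ranks of 5977 in replicate 2 and 1609 in replicate 4. Insulator and architectural protein genes supplied 2 of 20 downstream (10%) and 1 upstream (5%), the downstream ones being Trl and the zinc-finger gene pita (110 bp, signal 85.4). Ecdysone response genes supplied 2 of 18 downstream (11.1%) and 3 upstream (16.7%), the downstream ones being Eip75B and the cyclin-dependent kinase gene Eip63E (288 bp, signal 69), for which replicate 4 had no peak within 100 bp.

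Signalling genes supplied 2 of 78 downstream (2.56%, against 1.11% of all protein-coding genes) and 16 upstream (20.5%, against 5.51%). Stat92E, the transcription factor of the JAK/STAT pathway, had a signal of 120 with its summit in the 5' UTR 357 bp from the start, and ranked 2206 in replicate 2 and 493 in replicate 4. Mer, the gene of the tumour suppressor Merlin, had its summit in an intron at 77 bp with a signal of 98. Translation factors supplied 2 of 53 downstream (3.77%) and 7 upstream (13.2%), with downstream peaks at eEF1alpha1 (signal 121) and the RNA helicase gene eIF4A (76.5). Nervous system genes supplied 2 of 27 downstream (7.41%) and 5 upstream (18.5%), with downstream peaks at the neurexin gene Nrx-1 (signal 135, with no peak within 100 bp in replicate 2) and the axon guidance receptor gene robo2 (124). Single genes were found among 52 cell cycle genes (1.92%; Dp, the partner of E2F, signal 73.8), 33 splicing factors (3.03%; the sex determination gene Sxl, 96.2), 68 small GTPase genes (1.47%; RhoL, 68.5) and 41 patterning genes (2.44%; ush, a cofactor of GATA factors, 71.5). No gene of the lists of mitochondrial ribosomal proteins (73 genes), oxidative phosphorylation (84), the proteasome (48), aminoacyl-tRNA synthetases (31) or heat shock proteins and chaperones (34) had a downstream peak. At 1.11% a list of any of these sizes would hold less than 1, so each 0 is near the background share.

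Non-coding genes were represented by 25 of 1944 lncRNA genes (1.29%), close to the protein-coding share. Upstream of lone starts, 32 of the 1944 had a peak, against 768 of 13945 protein-coding genes. The 26 downstream peaks at lncRNA starts had a median distance of 278 bp and a median signal of 114, against 85 bp and 92.5 for all 191. One of them was lncRNA:Hsromega, the heat shock RNA omega gene, with its summit at 218 bp, a signal of 94.2 and ranks of 2337 in replicate 2 and 935 in replicate 4. Small RNA genes with a downstream peak included snRNA:7SKa (203 bp, signal 72.4), snRNA:U1:95Ca (154 bp, 87.6), snRNA:U4:39B (52 bp, 72.3) and RNaseMRP:RNA (66 bp, 71). By class they were 3 of 32 snRNA genes (9.38%), 2 of 269 snoRNA genes (0.743%) and 1 of 290 tRNA genes (0.345%). Of all genes it was 1.04%. These genes are short, and the summits at snoRNA:Or-CD4 (392 bp) and tRNA:Glu-TTC-1-5 (181 bp) lay beyond their annotated ends. U1 and U4 genes have near-identical copies, so reads there could have come from another copy, and 7SKa and U1:95Ca had no peak within 100 bp in the whole list of replicate 4.

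By chromosome the downstream peaks were spread as 38 on X, 29 on 2L, 47 on 2R, 28 on 3L, 48 on 3R and 1 on 4. Arm 2R held 24.6% of them (18.7 to 31.3), against 20.7% (18 to 23.6) of upstream peaks and 18.4% of the whole list. The peak on chromosome 4 was at ey, the Pax6 gene of eye development, with its summit 24 bp past the start and a signal of 70.4. It ranked 2411 in replicate 2 and 3144 in replicate 4. On the plus strand lay the starts of 83 of the 191 peaks.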

How the data were processed

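The authors deposited narrowPeak lists for dm6: 1 of 30000 peaks per replicate, a pooled list, and a list of 2758 peaks thresholded by irreproducible discovery rate, as the deposited records state. The peak signal is the authors' value, with its scale not stated. The deposited −log10 q value is 3.83 at every thresholded peak and was not used. Which aligner and peak caller were used is not given in the sources used, and read depth is unknown from these lists. Signals were compared within a list only, and ranks between lists. Summits were placed against every transcript start of Ensembl release 115 (transposable elements left out), and sequence was read from the RefSeq Release 6 genome, which share the dm6 coordinates. None of the nearest starts of the 191 peaks was tied. The feature under a summit was taken from any transcript on either strand, in the order coding exon, 5' UTR, 3' UTR, non-coding exon, intron. Shares have exact 95% Clopper-Pearson intervals, which cover counting error between peaks only. No test over peaks or genes was run. Replicate summits within 100 bp were taken as the same peak. Alternatives varied the window, the list, the start sites, the summit, the match distance, the motif window and the replicates. Counting and matching were tested on simulated peaks (Python 3.11.15, numpy 2.4.6, pandas 2.3.3, scipy 1.17.1).

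The peaks, the 16 gene lists and the 12 motifs were chosen with earlier results of these data known, and the division at 100 bp was made after the values were seen. Named genes are those of the 25 highest peaks, the 3 highest of each list, the 5 with the largest ratio of ranks between replicates (difference of log10 ranks) and the 3 at each edge. The remaining ribosomal protein genes, genes with printed motifs, eEF1alpha1 and Nacalpha as examples of shifted summits, the small RNA genes, lncRNA:Hsromega, ey and the genes with 2 peaks were named after their values were seen. Not every sequence behind these counts is reported here.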

Additional observations from a re-analysis of the deposited data

How the results depend on the processing

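With the 1379 highest peaks alone, the group held 79 peaks and 63 protein-coding genes, 39.2% lay within 100 bp, 86.1% were downstream in both replicates, 93.7% were matched in both, and 53.2% were in the higher 50% of that list. A window of 1000 bp gave 292 peaks and 235 genes, with 34.9% within 100 bp and 81.8% downstream in both; a window of 250 bp gave 71.8% within 100 bp. Matching within 50 bp gave 59.2% downstream in both and 40.8% matched in both, and whole replicate lists gave 91.6% matched. Motif windows of 50 and 150 bp gave 27.2% and 66% with CACTG, and 12.6% and 30.4% with TATAAA, as shorter and longer windows must. The highest peaks of 1 replicate alone gave 191 to 230 peaks, 42.9% to 58.7% within 100 bp and 155 to 204 protein-coding genes. They also gave 38.7% to 40.8% in the higher 50% of the list, 47.8% to 53.4% with CACTG, 2.62% to 6.52% with DRE and 22.5% to 24.3% with TATAAA. In all, 60 values, some of them given here, stayed within their interval or, for counts, within 1.5 times the reported one. No paired analysis was possible because there is 1 group. The share within 100 bp was lower in replicate 4 alone and in the highest peaks, and the cause was not tested. Read depth is unknown, so how far it limits weak peaks near the start cannot be given.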
